A study of Mus musculus with 4 samples.

Results

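The genes described here are 8 of the 27932 genes counted in any library: the Ccl21 copies Ccl21a, Ccl21b, Gm13304, Gm21541 and Gm10591, and the lymphatic endothelial genes Prox1, Lyve1 and Mmrn1. They were listed by name after Ccl21a had been seen to be higher in the mutant libraries over all cells, so the comparison of their levels over all cells is a description and supports nothing. Kidney cells of mouse embryos at E14.5 were profiled by Drop-seq, in which each cell is caught in a droplet with a barcoded bead and the 3′ ends of its transcripts are counted. There were 2 libraries from mutant kidneys, labelled -/- for Hoxa9, Hoxa10 and Hoxa11 and for Hoxd9, Hoxd10 and Hoxd11, and 2 from wildtype kidneys, and all 4 are labelled as of mixed strain, mainly CD-1 and 129. The labels give neither the kind of allele nor the number of embryos behind a library. Each of the 6 Hox genes was still counted in the mutant libraries, at 28.1 to 137 CPM (counts scaled to the kept cells' total of a library) in mutant 1 and 41.6 to 196 CPM in mutant 2, against 19.7 to 153 CPM in wildtype 1 and 39.7 to 175 CPM in wildtype 2. A 3′ tag outside the altered part of a gene checks nothing, so these levels do not check the genotype labels.

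Lymphatic vessels drain fluid and immune cells from tissues, and in the mouse embryo most of them arise from venous endothelium that switches on the transcription factor Prox1. The chemokine CCL21 is released by lymphatic endothelium and draws in dendritic cells and T cells that carry its receptor CCR7. Lyve1 is a hyaluronan receptor of lymphatic endothelium that some tissue macrophages also carry, and Mmrn1 encodes multimerin 1, a protein of platelets and endothelium. Pecam1 and Cdh5 encode junction proteins of endothelium at large. The mouse genome holds several near-identical Ccl21 genes, of which Ccl21a is the copy known for a serine, and the others for a leucine, at 1 residue of the protein.

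The 5 copies lie on chromosome 4 (mm10). Ccl21a lies at 42772860 to 42773993 on the minus strand, and Gm21541 (41903610 to 41904743), Gm13304 (42114817 to 42115917), Ccl21b (42255767 to 42256432) and Gm10591 (42612195 to 42612860) lie on the plus strand. Prox1 lies on chromosome 1 at 190118035 to 190170714, Mmrn1 on chromosome 6 at 60924976 to 60989378 and Lyve1 on chromosome 7 at 110850607 to 110863239. The coding sequence of each copy has 402 bases, and the other 4 copies differ from Ccl21a only at T84A and C194T, counted from 1 at the first base of the start codon, in codons 28 and 65. Bases 61 to 220 hold both differences, shown in capitals, because they are all that separates the copies in coding sequence; Ccl21b, Gm21541 and Gm10591 have the same stretch as Gm13304.
Ccl21a: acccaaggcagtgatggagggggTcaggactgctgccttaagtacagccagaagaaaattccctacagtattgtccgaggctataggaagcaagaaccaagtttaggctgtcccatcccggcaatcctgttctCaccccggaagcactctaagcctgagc
Gm13304: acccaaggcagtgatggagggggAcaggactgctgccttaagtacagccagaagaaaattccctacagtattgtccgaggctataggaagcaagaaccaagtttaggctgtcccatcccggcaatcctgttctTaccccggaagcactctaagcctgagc
After the coding sequence, Gm13304 and Gm21541 differ from Ccl21a at 3 of 393 bases, and for Ccl21b and Gm10591 the annotation holds the coding sequence only. Counts from the 3′ end can therefore be assigned to the wrong copy or to more than one, and the 5 genes are summed below as the Ccl21 family, a sum in which a molecule may be counted more than once. Gm13304, Gm21541 and Gm10591 also share most of the sequence before their start with Ccl21a. The 250 bases before the start of Ccl21a (RefSeq, GRCm38.p6, chr4:42773992-42774241, minus strand) are shown. The 2 bases at which Gm13304, Gm21541 or Gm10591 differ are in capitals, because they are all that separates these promoters over the bases compared. The part of the promoters in the levels of the copies was not tested.
Ccl21a promoter: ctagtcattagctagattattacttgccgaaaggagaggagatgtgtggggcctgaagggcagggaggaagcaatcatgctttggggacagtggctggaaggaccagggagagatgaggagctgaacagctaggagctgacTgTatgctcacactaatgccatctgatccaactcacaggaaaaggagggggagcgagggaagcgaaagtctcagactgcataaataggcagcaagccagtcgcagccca
Over 249 bases compared, the promoters of Gm13304 and Gm10591 differ from this one at 2 bases and that of Gm21541 (Ccl21d in RefSeq) at 1. The start that RefSeq gives for Ccl21b lies elsewhere, and its promoter differs at 167 of 248 bases.

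The 4 tables held 15144 barcodes, of which 11779 were kept as cells: 810 in mutant 1, 4329 in mutant 2, 1852 in wildtype 1 and 4788 in wildtype 2. Median depth per kept cell was 2467 and 3021 counts (called UMIs here) in the mutant libraries, against 3595 and 3452 in the wildtype libraries. The mitochondrial share was above 10% in 19.6% and 29.1% of mutant barcodes, against 7.76% and 9.06% of wildtype barcodes. Nephron progenitor-like cells made up 3.83% and 2.80% of kept mutant cells, against 21.9% and 21.8% of kept wildtype cells, and stroma-like cells made up 32.8% and 29.9%, against 20.3% and 17.2%. Libraries shared 3 barcodes between them. Fewer cells of a type and less RNA per cell cannot be told apart in the levels over all cells, and the part of these differences in the levels below was not tested.

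All 8 genes had higher levels in both mutant libraries than in both wildtype libraries, and the Ccl21 family stood furthest apart. The share of all genes that lie apart in the same way was not counted. The members were chosen on this contrast, so no result is drawn from this order. The family had 777 UMIs in mutant 1 and 2822 UMIs in mutant 2, against 18 UMIs in wildtype 1 and 79 UMIs in wildtype 2. Scaled to the library this was 251 and 164 CPM in the mutant libraries, against 2.01 and 3.49 CPM in the wildtype libraries, with means of 208 ± 61.1 and 2.75 ± 1.05 CPM (SD, n = 2 each) and a ratio of 75.4. The ratio rests partly on 1 wildtype barcode that the cell filters left out: over all barcodes the family had 218 and 161 CPM in the mutant libraries, against 11.4 and 3.83 CPM in the wildtype libraries, a ratio of 24.9.

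Ccl21a had 91.4 and 59.99 CPM in the mutant libraries, against 0.447 and 0.928 CPM in the wildtype libraries. The other copies followed it: Gm13304 had 69.1 and 42.0 CPM in the mutant libraries against 0.782 and 1.24 CPM in the wildtype libraries, and Gm21541 had 64.2 and 39.5 CPM against 0.335 and 0.928 CPM. Ccl21b had 11.9 and 11.1 CPM in the mutant libraries, against 0.335 and 0.221 CPM in the wildtype libraries, and Gm10591 had 14.2 and 11.7 CPM against 0.112 and 0.177 CPM. No copy overlapped between genotypes, but reads can be split between the copies, so these are not separate results.

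Prox1 had 8.39 and 10.0 CPM in the mutant libraries, against 3.13 and 2.61 CPM in the wildtype libraries. Mmrn1 had 8.07 and 10.7 CPM in the mutant libraries, against 2.12 and 1.68 CPM in the wildtype libraries. Lyve1 had 15.5 and 14.6 CPM in the mutant libraries, against 12.2 and 4.15 CPM in the wildtype libraries. Lyve1 was the member whose genotypes lay closest together, and wildtype 1 lay nearer to the mutant libraries than to wildtype 2. Over all kept cells, 6 of the 8 members were higher by the quasi-likelihood test of edgeR (Benjamini-Hochberg adjusted) and 0 were lower, where 1.19% of the 15776 genes tested were called, 0.881% higher and 0.311% lower; Prox1 and Lyve1 make up the other 2. The members were chosen on this contrast, so nothing is read from that count. Fitted log2 fold changes ran from 5.26 for Ccl21b to 6.48 for Ccl21a among the copies, and were 2.199 for Mmrn1, 1.57 for Prox1 and 0.82 for Lyve1.

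**Figure D1:**
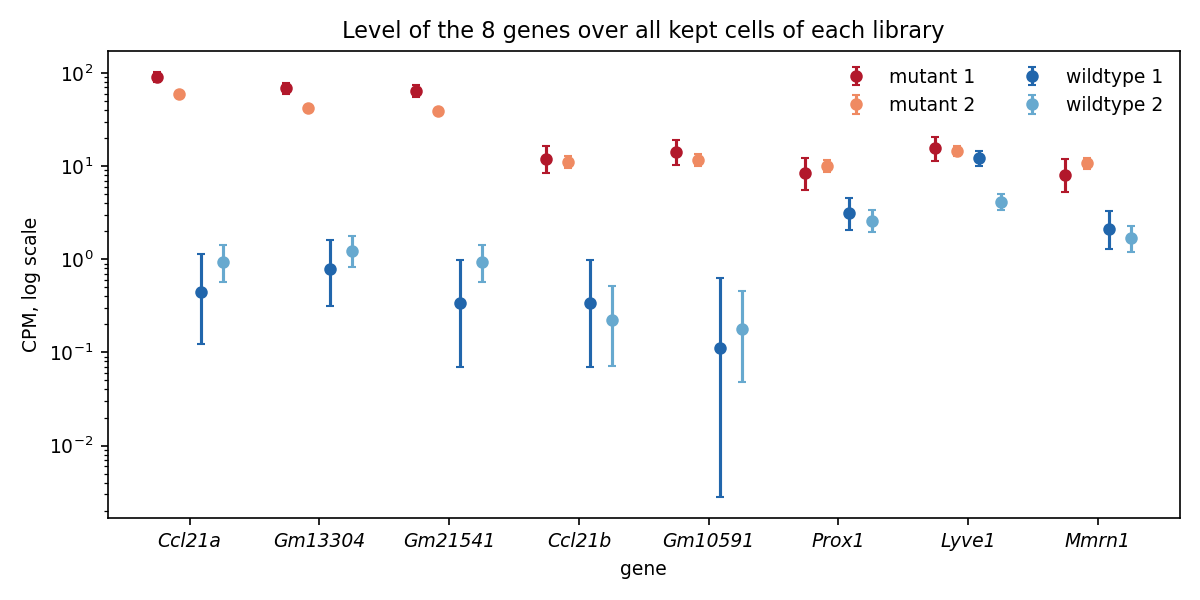
Level of each gene in the 4 libraries over all kept cells, in CPM on a log scale; points are libraries and bars are exact Poisson 95% intervals of the counts, which cover counting error only. The 5 copies have 11.1 to 91.4 CPM in mutant libraries and 0.112 to 1.24 CPM in wildtype libraries, while Lyve1 in wildtype 1 (12.2 CPM) lies close to both mutant libraries.

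Nearly all Ccl21 counts sat in a few cells. Only 13 of 810 kept cells in mutant 1 (1.60%) and 109 of 4329 in mutant 2 (2.52%) had a family UMI, against 8 of 1852 in wildtype 1 (0.432%) and 34 of 4788 in wildtype 2 (0.710%). Thinned to 1000 UMIs per cell, the shares were 0.726% and 1.44% in the mutant libraries, against 0.235% and 0.246% in the wildtype libraries, with 121 and 712 mutant and 152 and 715 wildtype cells too shallow to enter. The counts per barcode had a gap: of all 15144 barcodes, 34 had 12 or more family UMIs, and no other had more than 8. A line of 10 UMIs was set after this gap had been seen. Above it lay 2 barcodes of mutant 1, with 36 and 721 UMIs, 31 of mutant 2, with 12 to 382 UMIs and a median of 83, 1 of wildtype 1, with 93 UMIs, and 0 of 5542 in wildtype 2, where a limit of 3 counts allows a share of up to 0.0541%.

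In mutant 1, a single cell held 721 of the 777 family UMIs; it was deep, with 23539 UMIs against the library's median of 2467. The kept cells above the line held 97.4% of the family UMIs of mutant 1 and 95.3% of those of mutant 2. Without them the family had 7.13 ± 0.879 CPM in mutant libraries and 2.75 ± 1.05 CPM in wildtype libraries. Of the 34 barcodes, 27 were kept (2 in mutant 1 and 25 in mutant 2) and 7 were left out. In mutant 2, 6 were left out for a mitochondrial share above 10%, and the barcode of wildtype 1 was left out by the doublet step. That barcode had 2096 UMIs, of which 93 were of the family, 6 of Lyve1, 2 of Prox1, 1 of Mmrn1 and 1 of Pecam1, with 0 of Cdh5, and 4.53% of its counts were mitochondrial. A barcode rich in Ccl21 was thus also counted in a wildtype library.

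**Figure D2:**
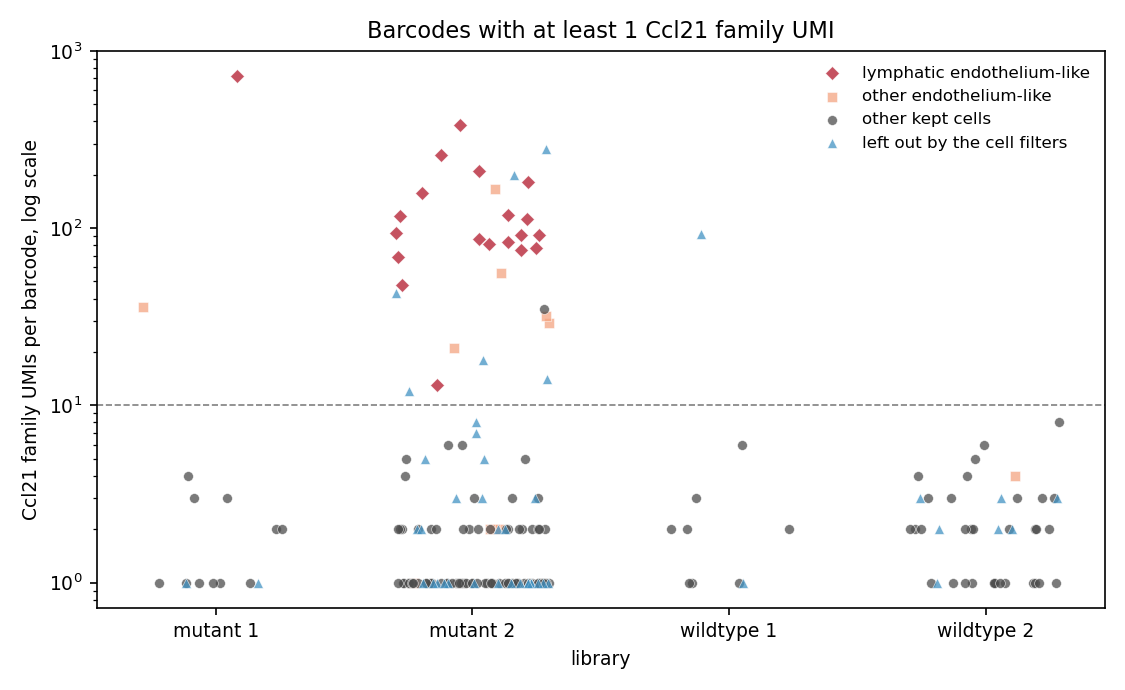
Ccl21 family UMIs of every barcode with at least 1, by library, on a log scale; symbols give the class of the cell and the dashed line marks 10 UMIs. Above the line lie 2, 31, 1 and 0 barcodes of mutant 1, mutant 2, wildtype 1 and wildtype 2, and the barcode of wildtype 1 is one that the cell filters left out.

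Each of the 34 barcodes also had a UMI of Prox1, Lyve1 or Mmrn1: 29 had Prox1, 23 had Lyve1 and 29 had Mmrn1. The family made up 0.117% to 4.81% of all UMIs in them, with a median of 2.10%. Pecam1 or Cdh5 was found in 26 of the 34. Among the 25 kept cells of mutant 2, 14 had Pecam1, 19 had Cdh5, 21 had either one (84%), 23 had Prox1, 18 had Lyve1, 21 had Mmrn1, and 16 had all 3 of the other members.

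Cells with 1 to 9 family UMIs looked different. Pecam1 or Cdh5 was found in 0 of 11 such cells in mutant 1 and 7 of 84 in mutant 2 (8.33%), against 0 of 8 in wildtype 1 and 1 of 34 in wildtype 2 (2.94%). In cells of the same libraries without a family UMI the shares were 6.65% and 11.4% in the mutant libraries, against 8.03% and 5.97% in the wildtype libraries. In mutant 2, 30 of 504 erythroid-like cells (5.95%), a class not known to make Ccl21, had 1 to 3 family UMIs at a median depth of 809. The shares were 0.995% in blood endothelium-like and 0.696% in stroma-like cells of mutant 2. In mutant 1 they were 0 of 49 in erythroid-like and 5 of 266 in stroma-like cells (1.88%). Low counts thus lay in different classes in different libraries, and their source was not tested. In the wildtype libraries, 7 of 406 nephron progenitor-like cells of wildtype 1 (1.72%) and 16 of 1045 of wildtype 2 (1.53%) had up to 6 family UMIs. Those shares lay above the erythroid-like cells of the same libraries (0 of 122, and 5 of 934 or 0.535%), which were shallower.

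Over the 34 barcodes, 35.8% of family UMIs were assigned to Ccl21a, 26.0% to Gm13304, 24.4% to Gm21541, 6.77% to Ccl21b and 7.04% to Gm10591. Ccl21a took 35.9% in mutant 1 and 36.0% in mutant 2, against 30.1% in the 1 barcode of wildtype 1. All 5 copies were counted in 29 of the 34 barcodes and at least 3 in each. In the 174 barcodes with fewer family UMIs, Ccl21a took 54.5% and Gm13304 18.2% of 22 UMIs in mutant 1, and 37.4% and 28.9% of 190 UMIs in mutant 2. There Ccl21a took 21.1% and Gm13304 36.8% of 19 UMIs in wildtype 1, and 28.4% and 33.7% of 95 UMIs in wildtype 2. Ccl21a was thus ahead of Gm13304 in the mutant libraries and behind it in the wildtype libraries, at counts too low to order them. Since the counting can split reads between copies, these are shares of counts and not levels of the copies.

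**Figure D3:**
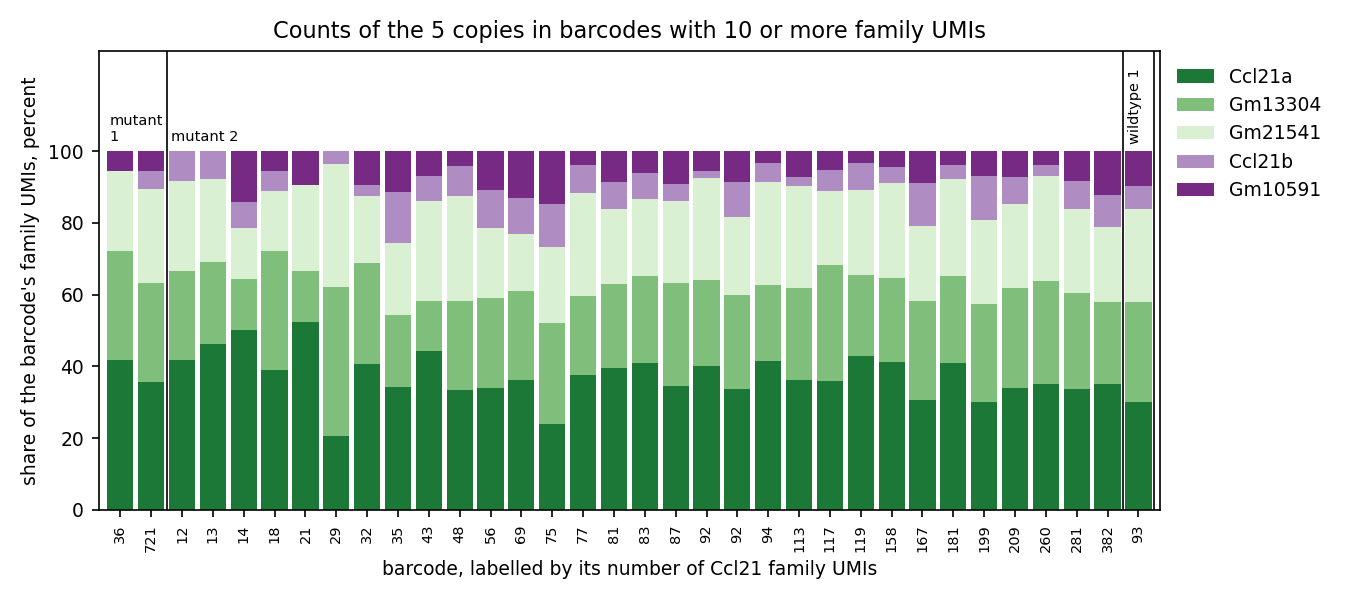
Share of each barcode's Ccl21 family UMIs assigned to each of the 5 copies, in the 34 barcodes above the line of 10; bars are barcodes, labelled by their family UMIs and grouped by library. Ccl21a takes 20.7% to 52.4% of a barcode's family UMIs.

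Positive cells were then counted for the other members. Prox1 was found in 14 cells of mutant 1 (1.73%) and 89 of mutant 2 (2.06%), against 23 of wildtype 1 (1.24%) and 50 of wildtype 2 (1.04%). Mmrn1 was found in 13 (1.60%) and 98 (2.26%) mutant cells, against 17 (0.918%) and 28 (0.585%) wildtype cells. Lyve1 was found in 11 (1.36%) and 96 (2.22%) mutant cells, against 34 (1.84%) and 44 (0.919%) wildtype cells, and here the genotypes overlapped. After thinning to 1000 UMIs, Prox1 was found in 0.726% and 0.829% of mutant cells against 0.294% and 0.246% of wildtype cells, and Mmrn1 in 0.726% and 0.691% against 0.118% and 0.0737%. Thinned Lyve1 was found in 0.871% and 0.912% of mutant cells, against 0.824% and 0.368% of wildtype cells.

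Endothelial co-expression differed between the members. Of Mmrn1-positive cells, 61.5% and 86.7% had Pecam1 or Cdh5 in the mutant libraries, against 76.5% and 64.3% in the wildtype libraries. Of Prox1-positive cells, 14.3% and 30.3% did in the mutant libraries, against 8.70% and 6% in the wildtype libraries. Of Lyve1-positive cells, 27.3% and 33.3% did in the mutant libraries, against 8.82% and 15.9% in the wildtype libraries. Most Mmrn1-positive cells thus had an endothelial gene in every library, and most Prox1- and Lyve1-positive cells had none. Among mutant cells below the line of 10, the shares were 63.6% and 87.0% for Mmrn1, 7.69% and 12.1% for Prox1, and 20% and 20.5% for Lyve1. The wildtype shares stand, since no kept wildtype cell lay above the line, and for Prox1 the genotypes then overlapped. Without the kept cells above the line of 10, Prox1 had 4.55 ± 0.462 CPM in mutant libraries and 2.87 ± 0.370 CPM in wildtype libraries, and Mmrn1 had 5.26 ± 1.45 and 1.90 ± 0.314 CPM. Lyve1 then had 10.3 ± 5.16 CPM in mutant libraries and 8.17 ± 5.68 CPM in wildtype libraries, and its genotypes overlapped (SD, n = 2 each).

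When cells were clustered without the 8 members, 25 of 954 endothelium-like cells formed a cluster that is called lymphatic endothelium-like from 3 markers, Flt4, Nrp2 and Maf. It held 1 cell of mutant 1 (0.123% of kept cells; exact 95% interval 0.00313 to 0.686) and 19 of mutant 2 (0.439%; 0.264 to 0.685), against 1 cell of wildtype 1 (0.0540%; 0.00137 to 0.3005) and 4 of wildtype 2 (0.0835%; 0.0228 to 0.214). The name holds for the mutant cells only: all 20 had family UMIs, while the 5 wildtype cells had 0 UMIs of every member, were shallow (851 UMIs in wildtype 1 and a median of 869 in wildtype 2) and had 2 UMIs of the lymphatic list between them. The count also moved with the settings. At least 1000 genes per cell gave 1 and 21 mutant cells against 0 and 0 wildtype cells, and no mitochondrial limit gave 1 and 27 against 0 and 2. Without the doublet step the cluster so named held 0 and 17 mutant cells against 2 and 0 wildtype cells, 1 of which had family UMIs. At a finer resolution the cluster so named held 1 and 19 mutant cells against 8 and 10 wildtype cells, but only 1 and 7 of the mutant cells and 0 of the wildtype cells had family UMIs, so most were other cells. With the members kept among the clustering genes, chosen after seeing the data, 3 and 28 mutant cells against 4 and 11 wildtype cells were so named. All of these had family UMIs, but the members helped to form that cluster. The share of lymphatic endothelium-like cells therefore rests on 1 mutant library and on the setting.

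The 19 cells of mutant 2 each had 13 to 382 family UMIs, with a median of 92 and a level of 18948 CPM. Prox1 was found in 18 of them at 718 CPM, Mmrn1 in 18 at 532 CPM and Lyve1 in 14 at 992 CPM. The 1 cell of mutant 1 had 721 family UMIs, 11 of Prox1, 5 of Lyve1 and 11 of Mmrn1. Among genes that are no members, the 10 with the largest fold over the other endothelium-like cells were Ptx3, Mrc1, Maf, Nnat, Stab1, Rnase4, Prss23, KCTD12, Sgk3 and Gm26924. Of these 10, Mrc1, Stab1 and Maf stand on the list of resident macrophage genes and only Maf on the lymphatic list; Flt4 led 4.62-fold and Nrp2 7.97-fold. Ptx3, which encodes a soluble pattern receptor, had 262 CPM in the 25 cells and 0.485 CPM in the others, and the scavenger receptor genes Mrc1 and Stab1 had 209 and 530 CPM in the 25 cells and 1.70 and 47.0 CPM in the others. Reln and Pdpn, both known lymphatic genes, had 177 and 144 CPM in the 25 cells and 1.45 and 1.70 CPM in the others. Not all genes of the lymphatic list led in this way. Sox18 had 58.9 CPM in the 25 cells and 63.7 CPM in the others, and Gata2 had 52.3 and 53.6 CPM. Emcn, a gene of capillaries and veins, had 32.7 CPM in the 25 cells and 464 CPM in the others. Flt1 and Aplnr had 0 UMIs in the 25 cells. These genes helped to form the cluster, so the values describe it and test nothing.

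By class, the Ccl21 family was highest in lymphatic endothelium-like cells in both mutant libraries, while the highest class was nephron progenitor-like in wildtype 1 (6.96 CPM) and erythroid-like in wildtype 2 (9.74 CPM). In blood endothelium-like cells, the other endothelium-like cells, it had 190 and 149 CPM in the mutant libraries, against 0 and 3.40 CPM in the wildtype libraries, but 1 and 5 mutant cells above the line of 10 held nearly all of that. One more such cell of mutant 2 was erythroid-like.

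Outside lymphatic endothelium-like cells, Lyve1 was highest in macrophage-like cells, at 544 and 96.5 CPM in the mutant libraries, against 815 and 283 CPM in the wildtype libraries. It had 15.8 and 24.3 CPM in blood endothelium-like cells of the mutant libraries, against 4.53 and 11.1 CPM in those of the wildtype libraries, so the ranges of these classes did not overlap. It had 1.31 and 7.61 CPM in stroma-like cells of the mutant libraries, against 5.87 and 2.62 CPM in those of the wildtype libraries, a range that overlapped with that of blood endothelium-like cells. Mmrn1 was highest, outside lymphatic endothelium-like cells, in blood endothelium-like cells, with 47.5 and 51.5 CPM in the mutant libraries against 22.6 and 22.1 CPM in the wildtype libraries. Macrophage-like cells had Mmrn1 in 1 of 26 and 2 of 71 cells of the mutant libraries, against 0 of 33 and 1 of 87 in the wildtype libraries. Their levels were 14.7 and 10.2 CPM against 0 and 4.35 CPM, below blood endothelium-like cells in every library. These counts are too low to rank macrophage-like cells among the remaining classes.

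Prox1 was spread over more classes. Neural, glial and chromaffin-like cells, a lineage in which Prox1 is also known, had it in 1 of 6 cells of mutant 1 and 15 of 46 of mutant 2, against 2 of 2 in wildtype 2; wildtype 1 had none of these cells. The summed level of a list of 12 neural genes was 181 and 276 CPM over all cells of the mutant libraries, against 56.7 and 50.6 CPM in the wildtype libraries, with Sox10 at 0 in mutant 1 and Hand2 at 0 in wildtype 1; its part in the Prox1 level was not tested. Loop and distal tubule-like cells had Prox1 in 0 of 35 cells of mutant 1 and 11 of 202 of mutant 2, against 2 of 80 in wildtype 1 and 7 of 198 in wildtype 2. Their level was 0 and 17.96 CPM in the mutant libraries, against 4.69 and 8.04 CPM in the wildtype libraries, so the genotypes overlapped, and Prox1 did not pass the filter on low counts in this class. Macrophage-like cells had Prox1 in 1 of 26 and 3 of 71 cells of the mutant libraries, against 0 of 33 and 0 of 87 in the wildtype libraries. Podocyte-like cells had 4.90 and 5.12 CPM in the mutant libraries, against 3.36 and 6.35 CPM in the wildtype libraries. Loop and distal tubule-like, podocyte-like, early nephron-like and nephron progenitor-like cells could not be put in an order, since their libraries overlapped. In erythroid-like cells Prox1 was found in 0 and 0.792% of mutant cells, against 0.820% and 0.107% of wildtype cells, at median depths of 809 to 1204 UMIs.

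**Figure D4:**
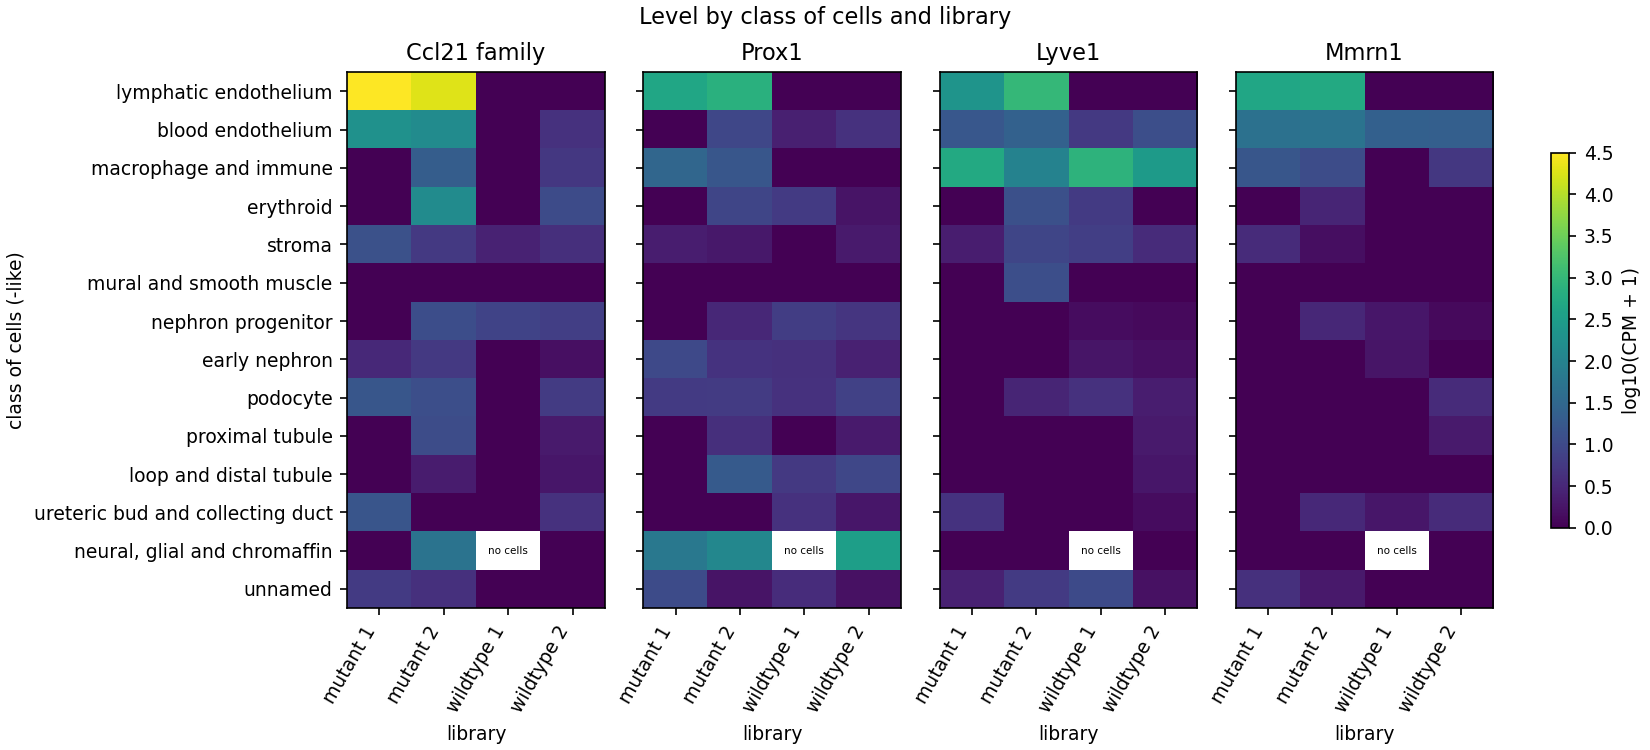
Level of the Ccl21 family, Prox1, Lyve1 and Mmrn1 by class of cells and library, as log10(CPM + 1); rows are classes, columns are libraries and a white box marks a class without cells. The family reaches 30630 and 18948 CPM in lymphatic endothelium-like cells of mutant 1 and mutant 2 and 0 CPM in the wildtype cells of that cluster. Lyve1 is highest in macrophage-like cells of mutant 1 and both wildtype libraries, and in lymphatic endothelium-like cells of mutant 2.

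Lyve1 in macrophages was compared between genotypes, a contrast that did not serve to choose the members. Lyve1 was found in 5 of 26 macrophage-like cells of mutant 1 (19.2%) and 12 of 71 of mutant 2 (16.9%), against 14 of 33 in wildtype 1 (42.4%) and 21 of 87 in wildtype 2 (24.1%). The shares did not overlap, but the levels did, since mutant 1 (544 CPM) lay between wildtype 1 (815 CPM) and wildtype 2 (283 CPM). The log2 fold change was -0.81 (SE 0.97) and did not pass the quasi-likelihood test of edgeR (Benjamini-Hochberg adjusted p = 0.962), where 0.0354% of the 2827 genes tested in these cells were called. Without mutant 2 the sign turned, to 0.13, so no direction can be given. The libraries may not come from separate animals, and a p-value here measures only the spread between libraries.

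Lyve1-positive macrophage-like cells carried more counts of several macrophage genes and none of Pecam1 or Cdh5. Of these 52 cells, 0 had Pecam1 or Cdh5, 0 had Prox1 and 2 had a family UMI. Of 13 listed resident macrophage genes, 8 were higher in Lyve1-positive than in Lyve1-negative macrophage-like cells of all 4 libraries, Pf4 was higher in 3, and Cd163 and Cd209f had 0 UMIs. Among genes with at least 50 UMIs in these cells, 6 of 7 of that list, 6 of 18 macrophage and immune markers (Csf1r and Cx3cr1 among them) and 158 of the 2106 genes other than Lyve1 were higher in all 4. Mrc1, the mannose receptor gene, had 3897, 2468, 3554 and 1671 CPM in Lyve1-positive cells and 1211, 904, 1094 and 438 CPM in Lyve1-negative cells, in mutant 1, mutant 2, wildtype 1 and wildtype 2. F13a1, which encodes a subunit of coagulation factor XIII, had 2576, 348, 2542 and 904 CPM in the positive cells and 56.8, 238, 849 and 438 CPM in the negative ones. Cells of 1 library are not replicates, and no test was made.

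In blood endothelium-like cells, Mmrn1 and Lyve1 had their highest levels in the mutant libraries, but neither passed the test. Mmrn1 was found in 8 of 51 cells of mutant 1 (15.7%) and 70 of 407 of mutant 2 (17.2%), against 13 of 146 in wildtype 1 (8.90%) and 19 of 325 in wildtype 2 (5.85%). Its log2 fold change was 1.12 (SE 0.48), with an unadjusted p of 0.0252 by edgeR's quasi-likelihood test and an adjusted p of 0.9998 (Benjamini-Hochberg). Lyve1 was found in 2 of 51 and 19 of 407 mutant cells, against 3 of 146 and 8 of 325 wildtype cells, at a log2 fold change of 1.32 (SE 0.63, unadjusted p of 0.0438, adjusted p of 0.9998 by the same edgeR test). Of the 8303 genes tested in these cells, 0.0602% were called. Without the doublet step the log2 fold changes were 1.84 for Mmrn1 and 2.17 for Lyve1 (adjusted p of 0.199 by edgeR for each), and Lyve1 had 2.24 without wildtype 2 and 0.85 without wildtype 1. Without cells of 5 or more family UMIs, an alternative chosen after the data had been seen, they were 0.96 for Mmrn1 and 0.99 for Lyve1. Median depth in these cells was 2691 and 3866 UMIs in the mutant libraries, against 3141 and 2180 in the wildtype libraries, and its part in the shares was not tested. The order was not particular to Mmrn1 and Lyve1. Pecam1 had 454 and 657 CPM in these cells of the mutant libraries, against 373 and 289 CPM in the wildtype libraries. Cdh5 had 449 and 595 CPM against 383 and 267 CPM. What this has to do with the levels of Mmrn1 and Lyve1 was not tested.

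**Figure D5:**
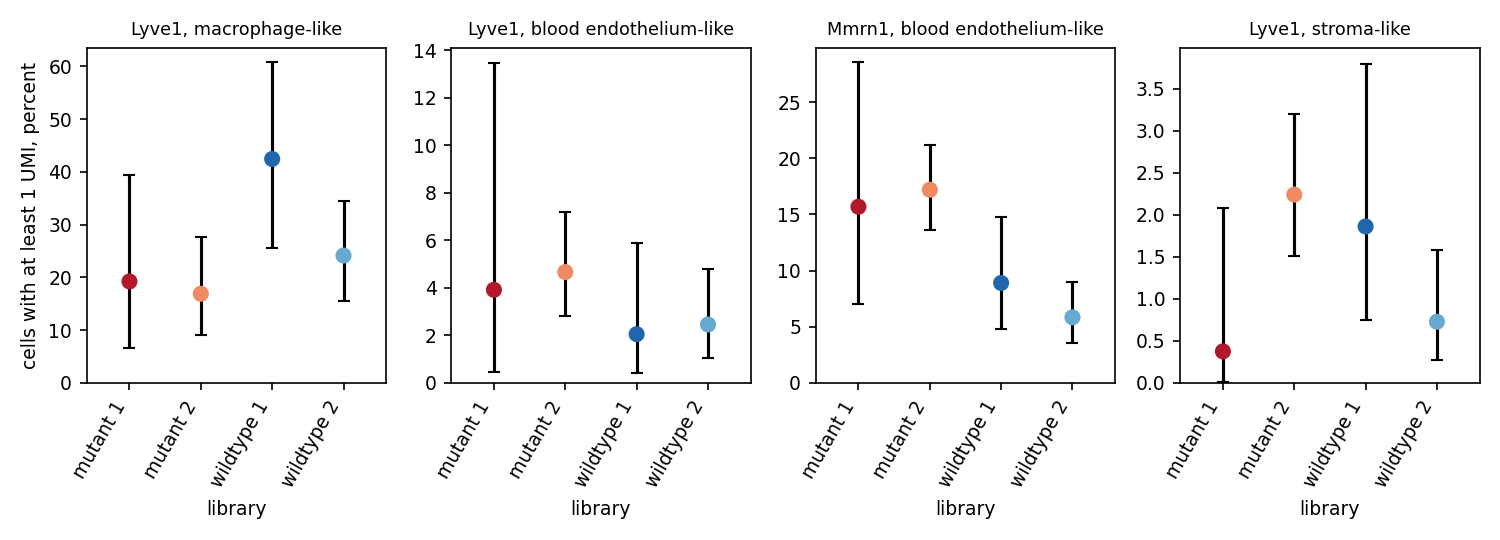
Share of cells with at least 1 UMI, in percent, for Lyve1 in macrophage-like, blood endothelium-like and stroma-like cells and Mmrn1 in blood endothelium-like cells; points are libraries and bars are Clopper-Pearson 95% intervals, which cover counting error only, on a separate axis from 0 in each panel. Lyve1 in macrophage-like cells is at 19.2% and 16.9% in mutant and 42.4% and 24.1% in wildtype libraries, with intervals that overlap.

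Other genes of the lymphatic pathway were read from 3 lists in the test over all kept cells, beside a resident macrophage list. Of 13 lymphatic endothelial genes tested that are no members, 0 passed the quasi-likelihood test of edgeR (Benjamini-Hochberg adjusted), and 0 passed with DESeq2. Of these, 5 had an unadjusted p under 0.05, as did 1497 of the 15776 genes tested, and 9 had a positive log2 fold change, with a median of 0.45 against 0.01 over all genes tested. Tbx1, a transcription factor gene, had a log2 fold change of 3.59 (adjusted p = 0.139) and Nrp2, a co-receptor of VEGF-C, had 1.55 (adjusted p = 0.146). With a library left out, 1 gene of the list passed in each fit, Nrp2 without mutant 1 or without wildtype 1, Tbx1 without mutant 2 and Foxc2 without wildtype 2. Summed over all kept cells, the 13 genes had 816 and 937 CPM in the mutant libraries, against 858 and 728 CPM in the wildtype libraries, and none was at 0 in any library. The sums overlapped, but Nr2f2 alone was a large part of them. It had 342 and 415 CPM in the mutant libraries, against 422 and 342 CPM in the wildtype libraries. The sums therefore say little about the genes of the list with low levels. A list of 25 blood and pan-endothelial genes had 629 and 1203 CPM in the mutant libraries, against 533 and 409 CPM in the wildtype libraries, with none at 0; its part in the members' levels was not tested.

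Of 17 tested genes of signals for lymphatic growth, 2 were called higher in the mutant libraries and 0 were called lower by the same edgeR test. Over the 15776 genes tested, 0.881% were called higher and 0.311% lower. Of the 17 genes, 12 had a positive log2 fold change, with a median of 0.70. Figf, the older symbol of the growth factor gene Vegfd, whose product binds the lymphatic receptor VEGFR3, had 35.2 and 50.2 CPM in the mutant libraries, against 9.50 and 6.72 CPM in the wildtype libraries. Its log2 fold change was 2.29 (SE 0.38, adjusted p = 0.00121 by edgeR). Svep1, an extracellular matrix gene needed for lymphatic vessel growth in mice, had 21.3 and 20.2 CPM in the mutant libraries, against 6.71 and 3.40 CPM in the wildtype libraries. Its log2 fold change was 1.96 (SE 0.39, adjusted p = 0.00758 by edgeR), and without wildtype 2 it did not pass (adjusted p = 0.0968). Within stroma-like cells, a larger share of the mutant libraries, Figf had 85.4 and 133 CPM in the mutant libraries, against 46.2 and 32.9 CPM in the wildtype libraries, and Svep1 had 34.2 and 49.6 CPM against 18.5 and 8.60 CPM. Flt4, Nrp2, Pdpn and Angpt2 stand in both the lymphatic and the growth list.

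Of 8 genes around the CCL21 receptor, 5 were tested and 0 passed, with a median log2 fold change of 0.80; Cxcl12 had 1.16 (adjusted p = 0.115) and S1pr1 had 0.80 (adjusted p = 0.689). Without wildtype 1, Cxcl12 passed. Ccr7 itself had 11 UMIs in all kept cells and did not pass the filter on low counts. Of 13 resident macrophage genes, 9 were tested and 0 passed, with a median of 0.92; Gas6 had 1.05 (adjusted p = 0.239) and Stab1 had 1.26 (adjusted p = 0.282). Of that list, F13a1 (lower in the mutant library) and Igf1 passed without mutant 1, Timd4, Stab1 and Pf4 without mutant 2, and Stab1 and Igf1 without wildtype 1. A list of macrophage and immune genes had 442 and 181 CPM in the mutant libraries, against 177 and 134 CPM in the wildtype libraries. For megakaryocyte and platelet genes, which mark another source of Mmrn1, the sums were 169 and 22.1 CPM against 47.1 and 30.7 CPM. Gp6 and Treml1 were at 0 in wildtype 1, and the sums overlapped between genotypes. Pf4 made up most of each sum, at 127 and 14.6 CPM in the mutant libraries against 40.8 and 22.9 CPM in the wildtype libraries. Of its 1525 UMIs, 1309 lay in macrophage-like cells, so these sums do not measure platelets, whose part in the Mmrn1 level was not tested. With 2 libraries of each genotype, how these lists move with the members was not tested.

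The genes whose levels were most like each member over 72 sums, each of 1 cluster in 1 library, were taken by Pearson's r of log2(CPM + 10). For the Ccl21 family they were Madcam1 (r = 0.81), Sox17, Gja5, Tcf15 and Gpihbp1, and without the highest sum r for Madcam1 was 0.65. For Mmrn1 they were Sox17 (r = 0.87), Sox7, Bcl6b, Gimap1 and Apold1, and for Lyve1 Mrc1 (r = 0.90), Alox5ap, Psmb8, Sp110 and Stab1. For Prox1 they were Jak3 (r = 0.80), Sgsm1, Dusp26, Ccm2l and Pcdh1, and its highest sum came from an unnamed, shallow cluster in mutant 1, where 6 of 38 cells had 1 UMI each. The clusters were those of the first step, in which the 25 lymphatic endothelium-like cells lay within the cluster of 954 endothelium-like cells. The highest family sum was that cluster in mutant 1, which held the cell with 721 family UMIs. Genes listed for the family therefore describe the pooled endothelium-like cells and not the lymphatic endothelium-like cells alone. The sums share libraries and depth, so these values are a description.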

How the data were processed

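Drop-seq tables of 2 mutant and 2 wildtype kidney libraries were used. The authors deposited raw counts per gene and barcode, whole numbers without normalization; Bowtie2 2.2.7 and mm10 are named per the submitters' processing notes. The annotation, strand handling and collapsing of molecular identifiers are not given in the sources used here, so a count is called a UMI only by convention, and intervals cover counting error only. Total counts were 3572346 and 21350698 in the mutant libraries and 9817486 and 24834658 in the wildtype libraries.

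Barcodes with at least 500 genes and at most 10% mitochondrial counts were kept, and the 5% with the highest Scrublet scores per library were left out. Cells were clustered in scanpy 1.11.5 (counts scaled to 10000 and log-transformed, 2000 variable genes without the 8 members, centred and scaled within each library, 30 components, 15 neighbours, Leiden resolution 1), and endothelium-like cells were clustered again alone. Clusters were named "-like" from 16 marker lists, by 3 or more markers that had 30 counts and led 2-fold (5 CPM added). At least 1 gene of the list also had to be among the cluster's 10 genes of largest fold. Other clusters stayed unnamed, such as a cluster of 804 cells with 10 stroma markers. From the second clustering only the lymphatic name was taken over, so a subcluster of 196 cells with erythroid markers stayed blood endothelium-like. Some rebuilt names may differ from the study's. Lymphatic endothelium-like, blood endothelium-like, macrophage-like and loop-like cells served for the comparisons. Counts summed per library were tested with edgeR 4.0.16 (TMM, filterByExpr, robust quasi-likelihood, Benjamini-Hochberg over all genes tested, threshold 0.05) in R 4.3.3; this was tested on simulated data. CPM are scaled to the total of the cells summed. Promoters of 7 of 8 members were found in RefSeq's table. Positions are from GENCODE vM21.

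The members, lists and tests were chosen with earlier results of these data known. Named genes are the 8 members, up to 4 genes of a list past the test or else the 2 with the smallest p, the 5 genes most like each member among genes with at least 50 UMIs (over sums of at least 20 cells), and the 10 with the largest fold in lymphatic endothelium-like cells among genes with at least 30 UMIs. Reln, Pdpn, Sox18, Gata2, Emcn, Flt1, Aplnr, Ccr7, Pf4, F13a1, Cd163, Cd209f, Foxc2, Timd4 and Igf1 were named after their values had been seen. Alternatives were DESeq2 1.42.0, each library left out, the replicate number as block, low counts unfiltered, other cell filters, thinning depths, a finer clustering, at least 2 UMIs, and cells with 2 lymphatic list genes. Clustering with the members kept, and sums without cells of 10 or more, or 5 or more, family UMIs, were chosen after seeing the data.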

Additional observations from a re-analysis of the deposited data

Results flagged for a closer look

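Prox1 levels were ordered in opposite ways in 2 neighbouring classes of the nephron lineage, at low counts. In early nephron-like cells it had 8.96 and 3.47 CPM in the mutant libraries, against 3.19 and 1.54 CPM in the wildtype libraries, a difference of the means of 3.85 CPM. In nephron progenitor-like cells it had 0 and 2.15 CPM in the mutant libraries, against 5.65 and 3.90 CPM in the wildtype libraries, a difference of -3.70 CPM. Within each class the levels of the genotypes did not overlap, but the difference between the classes was not tested. Prox1 was found in 3 of 66 and 9 of 352 early nephron-like cells of the mutant libraries, against 4 of 152 and 6 of 375 of the wildtype libraries, and these shares overlapped (2.56% in mutant 2 and 2.63% in wildtype 1). It was found in 0 of 31 and 1 of 121 nephron progenitor-like cells of the mutant libraries, against 11 of 406 and 20 of 1045 of the wildtype libraries. Median depth in nephron progenitor-like cells was 1570 and 2577 UMIs in the mutant libraries, against 4770 and 4943 in the wildtype libraries, and its part was not tested.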

How the results depend on the processing

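Of 192 values recomputed under alternatives, 170 stayed the same, 20 moved and 1 became weaker (Svep1 without wildtype 2). In 1 more, a fitted fold change turned its sign (Lyve1 in macrophage-like cells without mutant 2, 0.13 on the log2 scale). A fitted fold change stayed the same when it kept its sign and its side of the threshold, and counts of genes were judged by size. An untested difference stayed the same when it moved by less than 1 SD between libraries, whatever its sign. With untested differences counted, 5 values turned their sign, among them the share of Lyve1-positive cells (0.410 points), at -0.0194 without mutant 2 and -0.0480 without wildtype 2. Over all kept cells, 188 genes were called, and 265 to 403 with each library left out; the list of other lymphatic genes, with 0 called, had 1 in each of those fits. The mutant minus wildtype share of family-positive cells (1.49 percentage points) was 0.712 after thinning to 2000 UMIs, 0.702 for at least 2 UMIs and 1.03 to 1.95 with each library left out. The difference in the share of those cells with Pecam1 or Cdh5 (15.2 points) was 30.3 for at least 2 UMIs, 8.68 without the doublet step and 6.22 to 24.2 with each library left out. The difference in lymphatic endothelium-like cells (0.212 points) was -0.0392 at Leiden resolution 2, 1.19 for endothelium-like cells with 2 lymphatic list genes, and 0.0547 to 0.370 with each library left out. The choice by 2 list genes took 17 and 232 mutant cells, against 57 and 96 wildtype cells. Only 2 and 26 of those mutant cells and 0 and 0 of those wildtype cells had family UMIs, so 1.19 is not a share of Ccl21-bearing cells. With each library left out, the difference in family level (205 CPM) was 162 to 248 CPM, Lyve1 had log2 fold changes of -2.50 to 0.13 in macrophage-like and 0.85 to 2.24 in blood endothelium-like cells, and the Prox1 difference in loop and distal tubule-like cells (2.61 CPM) was -6.37 to 11.6 CPM. Without the filter on low counts, Prox1 in that class had a log2 fold change of 0.81 (adjusted p = 0.91 by edgeR); DESeq2 and a block gave it no value. A fit with the replicate number as block called 152 genes; the labels tie the numbers to nothing, and deviations of same-numbered libraries had r = 0.0791 over 15776 genes, so the numbers do not pair the libraries. A library left out leaves its genotype with 1, whose spread is taken to be that of the other genotype. The causes were not tested. Depth limits the counts of rare cells: 3 counts in wildtype 2 would be a share of 0.0541% of its barcodes.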
